A study of Mus musculus with 24 samples.

Results

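AMPK, the AMP-activated protein kinase, is a complex of a catalytic α, a scaffolding β and a nucleotide-binding γ subunit, and the RNA of 6 of its subunit genes was measured in mouse embryonic fibroblasts (MEFs). The genes were chosen by name: Prkaa1 and Prkaa2 for α, Prkab1 and Prkab2 for β, and Prkag1 and Prkag2 for γ. They are 6 of the 55487 genes in the deposited count table, and the annotation gives them 34 of the 142699 transcripts. All 6 genes and 28 of the 34 transcripts passed the filter on low counts. The remaining subunit gene of the family, Prkag3, had between 0 and 25 estimated counts in every library and is not described further.

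RNA-seq was performed on polyA RNA of WT MEFs and of MEFs labelled AMPK KO, each treated with the vehicle DMSO, with MK-8722 or with torin1, giving 6 groups of 4 libraries. MK-8722 is a direct activator of AMPK and torin1 is an inhibitor of the kinase MTOR. The study's methods describe the knockout cells as lacking both prkaa1 and prkaa2, so the WT and AMPK KO groups differ in the catalytic subunits, and each genotype is 1 cell line. The labels state neither the dose nor the duration of treatment for these libraries. WT libraries were of passage 12 to 15 and AMPK KO libraries of passage 16 to 19, with 1 library of each passage in every group, so genotype and passage cannot be told apart. P-values measure the spread between these libraries, and in bulk RNA a change in the number of cells that express a gene and a change in its RNA per cell cannot be told apart.

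The α subunit carries the kinase domain, and its phosphorylation in the activation loop by LKB1 or CAMKK2 switches the complex on. The β subunit holds α and γ together and carries a carbohydrate-binding module through which the complex can bind glycogen, and β also forms, with α, the pocket that activators such as MK-8722 occupy. The γ subunit binds AMP, ADP and ATP and so couples the activity of the complex to the energy state of the cell. Any α can assemble with any β and any γ, and the isoform mix differs between tissues, with the α2, β2 and γ3 isoforms prominent in skeletal muscle.

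Totals ranged from 26900240 to 34192685 estimated counts per library, and log2 values of replicates correlated across genes with r of 0.9888 to 0.9934 in the 36 within-group pairs. Between 6 and 8 of the 10 fibroblast markers reached 1 CPM (counts scaled by the effective library size) in each group, while Lum was listed at 0 in 5 of the 6 groups. The summed fibroblast markers were at 11090 to 17100 CPM in WT libraries and 4768 to 6833 CPM in AMPK KO libraries, so they moved with genotype, and their part in the genotype differences below was not tested. Markers of epithelial, leukocyte and skeletal muscle cells summed to at most 6.87, 4.09 and 3.19 CPM. Endothelial markers summed to 4.36 to 8.49 CPM in WT libraries with MK-8722 against 0.807 to 1.21 CPM in WT libraries with DMSO. Most of the MK-8722 sum was Kdr, which reached 8.41 CPM. Pecam1 and Cdh5 had at most 0.451 and 0.484 CPM in any library. The part of these markers in the response to MK-8722 was not tested.

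In levels per length, given as TPM (a read count scaled for transcript length and library size) and averaged within groups, Prkag1 was the most abundant subunit gene with 66.7 to 118.8 TPM. Prkab1 followed with 44.8 to 71.8 TPM, and Prkag2 and Prkaa1 lay at 21.9 to 32.8 and 23.9 to 28.8 TPM. Prkab2 with 4.01 to 7.39 TPM and Prkaa2 with 0.643 to 1.47 TPM were the least abundant. The α1, β1 and γ1 genes therefore made up most of the transcripts of their classes in every group. Summed over both genes of a class in WT cells with DMSO, γ transcripts reached 112.7 ± 4.31 TPM (SD, n = 4), β transcripts 63.9 ± 2.34 TPM and α transcripts 27.3 ± 0.875 TPM.

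**Figure D1:**
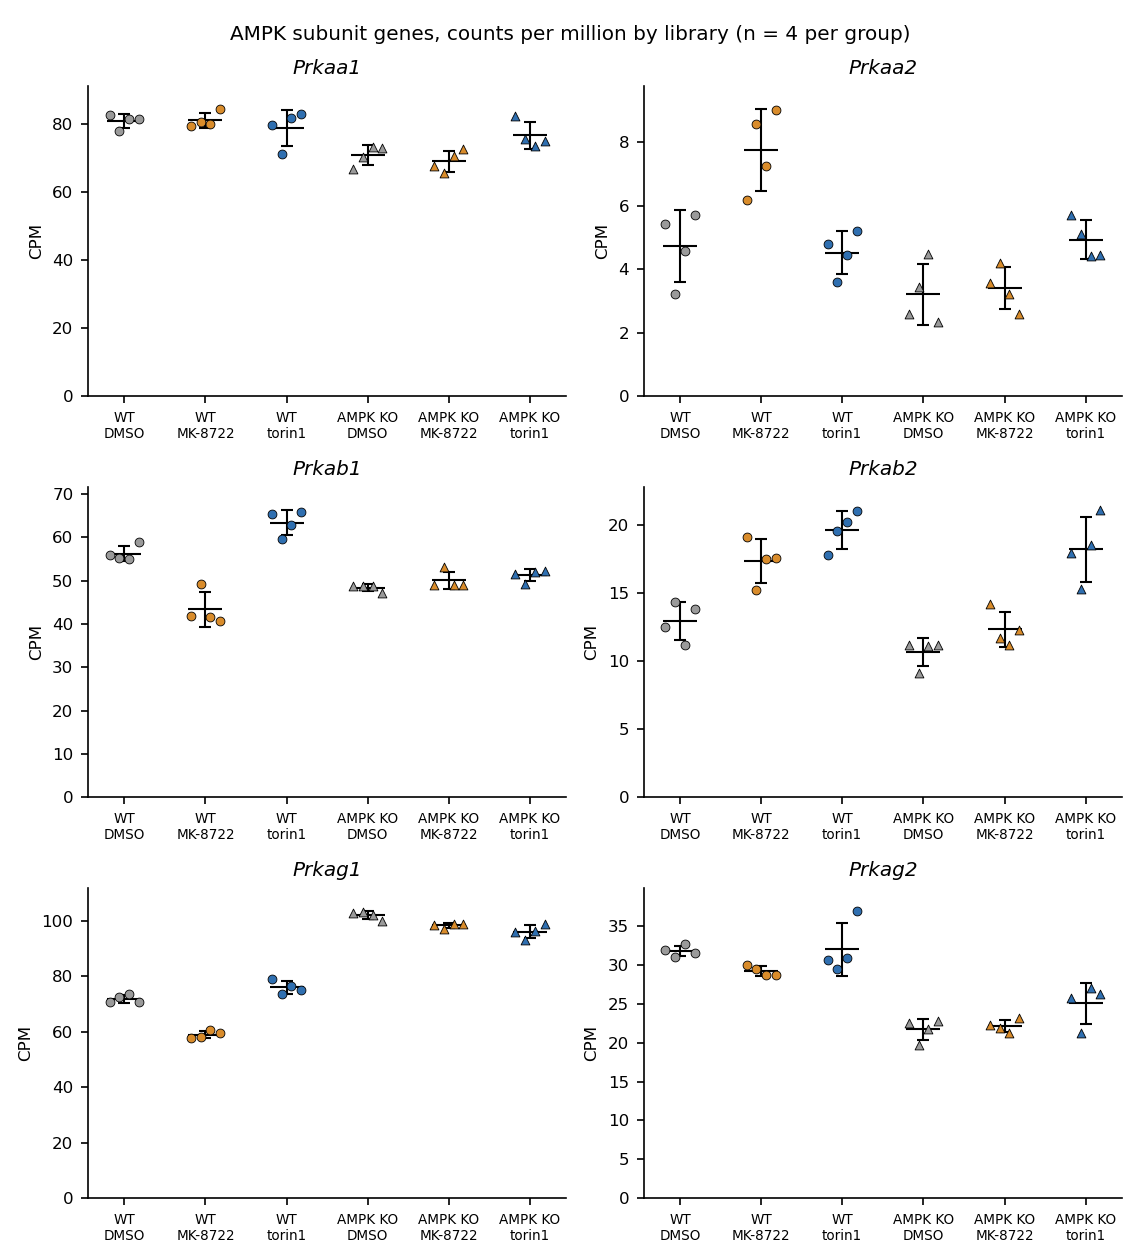
Level of each of the 6 subunit genes in CPM on linear axes that start at 0, by group, with 1 point per library and bars for the mean and SD of 4 libraries. Prkag1 is higher and Prkag2 lower in every AMPK KO library than in every WT library, and the group mean of Prkab1 is lowest in WT cells with MK-8722, where 1 library overlaps with AMPK KO libraries.

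Of the α genes, Prkaa1, which encodes α1 (ENSMUSG00000050697, GRCm38 chr15:5143861-5181899, plus strand), hardly moved with the drugs, whereas Prkaa2, which encodes α2 (ENSMUSG00000028518, chr4:105029874-105109890, minus strand), rose with MK-8722 in WT cells. Prkaa1 had 82.6, 78.0, 81.6 and 81.5 CPM in replicates 1 to 4 of WT cells with DMSO, and 66.9, 70.4, 73.3 and 73.0 CPM in those of AMPK KO cells with DMSO. Gene counts sum over all exons, so reads of Prkaa1 or Prkaa2 in libraries labelled AMPK KO do not check the deletion. The WT means were 81.2 ± 2.22 CPM with MK-8722 and 79.0 ± 5.33 CPM with torin1 (SD, n = 4), and the AMPK KO means were 69.1 ± 3.11 and 76.7 ± 3.96 CPM. All AMPK KO libraries with DMSO or MK-8722 lay below all WT libraries of the same treatment, while those with torin1 overlapped. The difference between genotypes in DMSO was -0.19 on the log2 scale (edgeR quasi-likelihood test, adjusted p = 0.00101 by Benjamini and Hochberg over 15828 genes), which is not a call, since a call required an adjusted p under 0.05 and a change of at least 1.2-fold. With the trend of fold changes over GC content and length removed, it was -0.08 (adjusted p = 0.0784). Torin1 in AMPK KO cells gave 0.11 (edgeR adjusted p = 0.0437, under 1.2-fold), which turned to -0.08 under the same setting.

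Prkaa2 was measured at 5.44, 3.22, 4.58 and 5.71 CPM in WT replicates 1 to 4 with DMSO. With MK-8722 the WT replicates had 6.19, 8.59, 7.27 and 9.01 CPM. Every MK-8722 library lay above every DMSO library, and the rise was 0.71 ± 0.189 on the log2 scale (SE, edgeR adjusted p = 0.00623). The AMPK KO libraries had 2.58, 3.43, 4.49 and 2.34 CPM of Prkaa2 with DMSO and 3.59, 4.21, 3.23 and 2.61 CPM with MK-8722. These groups overlapped, and the log2 difference was 0.09 with a 95% interval of -0.31 to 0.48 (edgeR adjusted p = 0.893). The response to MK-8722 was lower in AMPK KO than in WT cells by a log2 value of -0.62, which did not pass the test of the difference itself (edgeR adjusted p = 0.13). With passage as a block this difference was called, at -0.62 (edgeR adjusted p = 0.00408), and so was that in the response to torin1, at 0.70 (0.69 and adjusted p = 0.118 without the block, adjusted p = 0.00262 with it).

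With torin1, Prkaa2 stood at 4.79, 3.62, 4.46 and 5.21 CPM in WT cells and at 5.72, 5.13, 4.42 and 4.46 CPM in AMPK KO cells. The WT libraries overlapped with those given DMSO (log2 difference -0.07, edgeR adjusted p = 0.77). The AMPK KO mean rose by 0.62 ± 0.196 on the log2 scale (SE, edgeR adjusted p = 0.00969), although 1 DMSO library lay within the range of the torin1 libraries. This call was lost without AMPK KO DMSO replicate 4 (0.44, edgeR adjusted p = 0.0747) and with the GC and length trend removed (0.40, adjusted p = 0.0709).

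Between genotypes, Prkaa2 was lower in AMPK KO than in WT cells with MK-8722 by a log2 value of -1.19 (edgeR adjusted p = 6.98e-06), and its only annotated transcript, Prkaa2-201, differed by -1.11 (edgeR adjusted p over 56835 transcripts = 0.000295). In DMSO the log2 difference was -0.56 (edgeR adjusted p = 0.0146). That call was lost without AMPK KO DMSO replicate 4 (adjusted p = 0.0635), without WT DMSO replicate 4 (adjusted p = 0.0532) and with scaling by library size alone (adjusted p = 0.0703). Between the nearest passages, WT 15 and AMPK KO 16, Prkaa2 had 4.58 and 4.49 CPM in DMSO. As a transcript, Prkaa2-201 was not called with MK-8722 in WT cells (0.70, edgeR adjusted p = 0.0673, overlapping groups). Nor was it called with torin1 in AMPK KO cells (0.60, edgeR adjusted p = 0.0604) or between genotypes in DMSO (-0.50, edgeR adjusted p = 0.0925).

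The 2 transcripts of Prkaa1 share 4618 exonic bases, and Prkaa1-201 holds 37 more, 27 of them coding. Over all libraries Prkaa1-201 took 52.2% of the gene's TPM and Prkaa1-202 took 47.8%. None of the 7 comparisons between groups called either transcript, with log2 differences of -0.17 to 0.20 for Prkaa1-201 and -0.13 to 0.06 for Prkaa1-202. Over the 14 such tests of these 2 transcripts, the lowest edgeR adjusted p was 0.0784.

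The β genes moved in opposite directions with MK-8722 in WT cells. Prkab1, which encodes β1 (ENSMUSG00000029513, chr5:116013586-116024508, minus strand), had 55.8, 55.2, 55.0 and 58.8 CPM in the WT replicates with DMSO. With MK-8722 it had 41.9, 49.2, 41.6 and 40.6 CPM. All 4 treated libraries lay below all 4 controls, with replicate 2 standing apart from the other treated libraries, and the fall was -0.38 ± 0.0504 on the log2 scale (SE, edgeR adjusted p = 4.6e-06). Prkab1 in AMPK KO cells stood at 48.7, 48.8, 48.7 and 47.1 CPM with DMSO and 49.0, 53.0, 49.0 and 49.1 CPM with MK-8722. The AMPK KO values with MK-8722 were all slightly above those with DMSO, by a log2 value of 0.05 with a 95% interval of -0.05 to 0.15 (edgeR adjusted p = 0.691). The interaction of MK-8722 with genotype passed the test for Prkab1, at 0.43 ± 0.0709 (SE, edgeR adjusted p = 0.000189).

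Torin1 moved Prkab1 little. WT libraries with torin1 had 65.4, 59.5, 62.8 and 65.8 CPM, and AMPK KO libraries had 51.6, 49.1, 52.1 and 52.2 CPM. Every torin1 library lay above every DMSO library of its genotype. The log2 differences from DMSO were 0.17 in WT cells (edgeR adjusted p = 0.0042, under 1.2-fold) and 0.08 in AMPK KO cells (edgeR adjusted p = 0.156). Scaling by library size alone brought the WT value to 0.27 and past 1.2-fold. That scaling moved the median of all genes from 0.036 to 0.136 in this comparison, and in the genotype comparison in DMSO from 0.015 to 0.155.

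Between genotypes, the sign for Prkab1 depended on the drug. It was lower in AMPK KO cells in DMSO (log2 difference -0.22, edgeR adjusted p = 0.000457, under 1.2-fold) and in torin1 (-0.31, edgeR adjusted p = 7.33e-06). In MK-8722 it was higher in AMPK KO cells, by 0.21 (edgeR adjusted p = 0.000777, under 1.2-fold). With the GC and length trend removed the MK-8722 value turned to -0.19 (edgeR adjusted p = 0.00183) and the DMSO value became -0.61. The interaction of MK-8722 with genotype was 0.42 under that setting. The torin1 value was -0.20 and under 1.2-fold with scaling by library size alone. The DMSO value passed 1.2-fold without WT DMSO replicate 1, 2 or 3 (-0.26 to -0.27), and the MK-8722 value did so without WT MK-8722 replicate 2 (0.27).

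With torin1 the group mean of Prkab1-201 was lower and that of Prkab1-202 higher than with DMSO in both genotypes. The fall of Prkab1-201 was called in AMPK KO cells alone. A change in their shares of the gene's TPM did not pass adjustment (exact permutation test, adjusted p = 0.222 for each transcript in each genotype). Each unadjusted p was 0.0286, the smallest this test can give, so that failure does not decide whether the shares changed. Prkab1-201 and Prkab1-202 encode the same 810 coding bases, and they differ in 109 exonic bases held by Prkab1-201 alone of the pair and 46 held by Prkab1-202 alone. Against all annotated transcripts of the gene, only 12 bases are held by Prkab1-201 alone and 46 by Prkab1-202 alone. Prkab1-201 in AMPK KO cells had 20.5, 21.6, 20.8 and 21.4 CPM with DMSO and 16.2, 17.7, 15.4 and 16.1 CPM with torin1. All torin1 libraries were below all DMSO libraries, a fall of -0.37 on the log2 scale (edgeR adjusted p = 0.00286). Prkab1-202 had 20.6, 19.0, 19.97 and 18.5 CPM with DMSO and 24.5, 22.3, 27.8 and 27.6 CPM with torin1. All torin1 libraries were above all DMSO libraries, a rise of 0.39 on the log2 scale (edgeR adjusted p = 0.0159). The rise lost its call without AMPK KO DMSO replicate 4 or without torin1 replicate 3 or 4. The fall of Prkab1-201 was under 1.2-fold with limma on log2 TPM (-0.24, adjusted p = 0.0331).

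In WT cells torin1 raised Prkab1-202 from 19.0, 16.0, 17.3 and 21.4 CPM to 30.9, 24.5, 33.4 and 29.1 CPM. The ranges did not overlap, and the log2 difference was 0.68 (edgeR adjusted p = 8.08e-05). Prkab1-201 had 25.8 ± 1.81 CPM (SD, n = 4) with DMSO and 22.8 ± 3.19 CPM with torin1, an overlapping pair of groups (log2 difference -0.18, edgeR adjusted p = 0.136). The share of Prkab1-202 in the gene's TPM was 24.8% ± 2.51 with DMSO and 34.0% ± 3.72 with torin1 in WT cells, and 29.7% ± 0.909 and 36.2% ± 2.57 in AMPK KO cells. Both pairs of groups were separate, with an exact two-sided permutation p of 0.0286, the smallest that 4 against 4 libraries can give, and an adjusted p of 0.222 over the 70 transcript share comparisons.

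**Figure D2:**
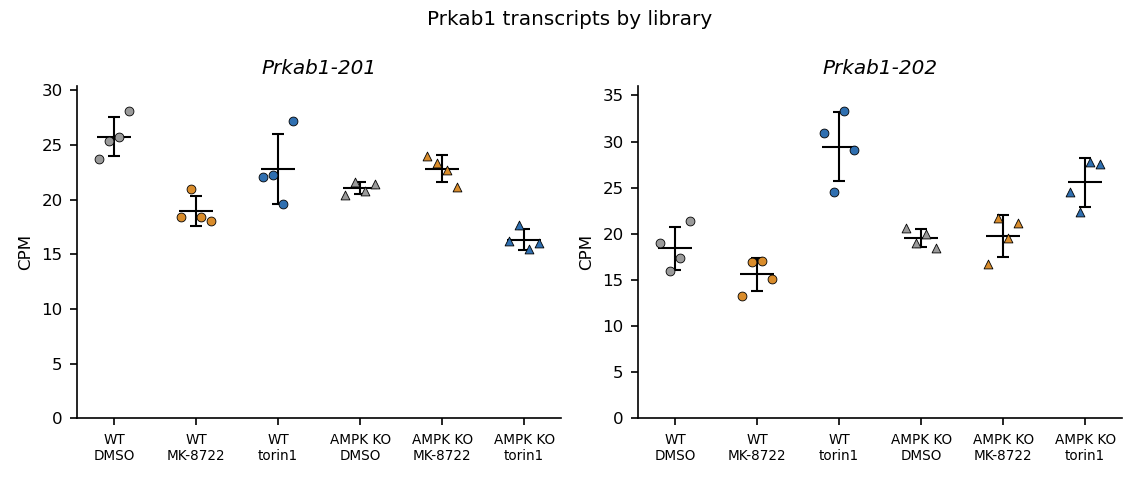
Levels of the Prkab1 transcripts Prkab1-201 and Prkab1-202 in CPM on linear axes that start at 0, by group, with 1 point per library and bars for the mean and SD of 4 libraries. In AMPK KO cells torin1 libraries are lower than DMSO libraries for Prkab1-201 and higher for Prkab1-202.

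With MK-8722 in WT cells Prkab1-201 fell with the gene, from 23.8, 25.4, 25.8 and 28.1 CPM to 18.4, 20.97, 18.4 and 18.0 CPM. These groups did not overlap (log2 difference -0.44, edgeR adjusted p = 0.00233). Its interaction of MK-8722 with genotype, a contrast added after the data were seen, was 0.56 ± 0.117 (SE, edgeR adjusted p = 0.0169). Prkab1-202 had 15.6 ± 1.78 CPM against 18.4 ± 2.31 CPM in the same comparison (SD, n = 4, log2 difference -0.24, edgeR adjusted p = 0.307). The share of Prkab1-201 in the gene's TPM was 33.5% with DMSO and with MK-8722, so a fall particular to Prkab1-201 was not shown. Between genotypes Prkab1-201 had log2 differences of -0.29 in DMSO, 0.27 in MK-8722 and -0.48 in torin1 (edgeR adjusted p = 0.00989, 0.016 and 0.000109), and Prkab1-202 had 0.34 in MK-8722 (edgeR adjusted p = 0.0218). The DMSO call of Prkab1-201 was lost without WT DMSO replicate 4, where the value was -0.25, with library size alone (-0.22) and with limma on log2 TPM (-0.25). The MK-8722 call of Prkab1-201 failed without WT replicate 1, 3 or 4 or AMPK KO replicate 1 or 2 (0.24 to 0.25) and with limma on log2 TPM (0.25), and that of Prkab1-202 without WT replicate 1 or 4 or AMPK KO replicate 2 or 4 (0.27 to 0.33). The third transcript with over 10% of the gene's TPM, Prkab1-208, is annotated for nonsense-mediated decay. It took 18.6% over all libraries and was not called in any comparison.

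Prkab2, which encodes β2 (ENSMUSG00000038205, chr3:97658193-97673812, plus strand), rose with both drugs in WT cells and with torin1 in AMPK KO cells. It had 12.5, 14.3, 11.2 and 13.8 CPM in WT cells with DMSO. With MK-8722 the WT values were 19.1, 15.2, 17.5 and 17.6 CPM, and with torin1 they were 17.8, 19.5, 20.2 and 21.04 CPM. No treated library overlapped with the controls, and the log2 rises were 0.42 ± 0.1 with MK-8722 (SE, edgeR adjusted p = 0.00278) and 0.60 ± 0.0992 with torin1 (SE, edgeR adjusted p = 1.42e-05).

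Prkab2 in AMPK KO cells had 11.2, 9.13, 11.1 and 11.2 CPM with DMSO. The values with MK-8722 were 14.2, 11.7, 11.2 and 12.3 CPM, and those with torin1 were 17.9, 15.3, 18.5 and 21.1 CPM. Every torin1 library was above every library with DMSO or MK-8722, and the difference from DMSO was 0.77 ± 0.1 on the log2 scale (SE, edgeR adjusted p = 5.64e-07). With MK-8722 the log2 difference was 0.21 with a 95% interval of 0.01 to 0.41 (edgeR adjusted p = 0.298). The MK-8722 libraries did not overlap with those given DMSO, though the lowest, at 11.2 CPM, was close to the highest DMSO value, 11.19 CPM. The interactions of genotype with MK-8722 (-0.21, edgeR adjusted p = 0.371) and with torin1 (0.17, edgeR adjusted p = 0.503) did not pass the test, so no difference between genotypes in the response of Prkab2 was shown. In torin1 Prkab2 did not differ by a call between genotypes (-0.11, edgeR adjusted p = 0.322), but it did without AMPK KO torin1 replicate 4 (-0.26).

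Between genotypes Prkab2 was lower in AMPK KO cells in MK-8722 by a log2 value of -0.49 (edgeR adjusted p = 0.000127) and in DMSO by -0.28 (edgeR adjusted p = 0.0169). The DMSO call was lost without AMPK KO DMSO replicate 2 (-0.23, adjusted p = 0.0591), with scaling by library size alone (-0.14, adjusted p = 0.215), with a minimum of 10 counts (-0.23, under 1.2-fold) and with an offset for transcript length (adjusted p = 0.0517). The main transcript, Prkab2-201, took 71.0% of the gene's TPM over all libraries. It rose with torin1 by 0.67 in WT cells (edgeR adjusted p = 0.00288) and by 0.85 in AMPK KO cells (edgeR adjusted p = 0.00041). With MK-8722 in WT cells it was not called (0.44, edgeR adjusted p = 0.134, overlapping groups). It was lower in AMPK KO cells in MK-8722 by -0.44 (edgeR adjusted p = 0.0356), and that call held only without AMPK KO replicate 1 or WT replicate 2 among the 8 fits with 1 library fewer.

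Of the γ genes, Prkag1 was higher and Prkag2 lower in AMPK KO than in WT cells under all 3 treatments. Prkag1, which encodes γ1 (ENSMUSG00000067713, chr15:98812797-98831521, minus strand), had 70.6, 72.6, 73.5 and 70.8 CPM in WT cells with DMSO. In AMPK KO cells with DMSO it had 102.8, 103.2, 102.1 and 99.9 CPM. The genotypes were far apart relative to their spread, with a log2 difference of 0.51 ± 0.0303 (SE, edgeR adjusted p = 3.81e-13). In MK-8722 the WT values were 57.6, 58.2, 60.5 and 59.4 CPM and the AMPK KO values 98.4, 97.1, 98.6 and 98.9 CPM. In torin1 they were 79.1, 73.5, 76.6 and 75.0 CPM in WT cells and 95.9, 93.1, 96.2 and 98.8 CPM in AMPK KO cells. Every AMPK KO library was above every WT library, with log2 differences of 0.74 in MK-8722 (edgeR adjusted p = 3.33e-16) and 0.34 in torin1 (edgeR adjusted p = 6.47e-10).

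With the GC and length trend removed, the genotype differences of Prkag1 were 0.25 in DMSO, 0.49 in MK-8722 and 0.11 in torin1, so the DMSO and torin1 values were then under 1.2-fold. The torin1 value was also under 1.2-fold without WT torin1 replicate 3 (0.26) or AMPK KO torin1 replicate 4 (0.25). Between WT passage 15 and AMPK KO passage 16, Prkag1 had 73.5 and 102.1 CPM in DMSO, 60.5 and 97.1 CPM in MK-8722 and 79.1 and 95.9 CPM in torin1.

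MK-8722 lowered Prkag1 in WT cells by -0.29 ± 0.0308 on the log2 scale (SE, edgeR adjusted p = 1.87e-07). Its AMPK KO difference was -0.05 (edgeR adjusted p = 0.393). The interaction had an adjusted p of 0.000551 by edgeR, with a value of 0.23 that is under 1.2-fold. Torin1 gave small differences of opposite sign, 0.08 in WT cells (edgeR adjusted p = 0.0237) and -0.09 in AMPK KO cells (edgeR adjusted p = 0.0159), and neither reached 1.2-fold. The WT value was -0.01 with the GC and length trend removed.

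Transcript Prkag1-201 took 82.9% of the gene's TPM over all libraries and moved as the gene did. It fell with MK-8722 in WT cells by -0.30 (edgeR adjusted p = 0.00259, just under 1.2-fold at -0.26 without WT MK-8722 replicate 1), and it was higher in AMPK KO cells by 0.59, 0.84 and 0.32 in DMSO, MK-8722 and torin1. A minor coding transcript, Prkag1-206, which took 5.40% of the TPM, was also higher in AMPK KO cells, by 1.09, 0.86 and 1.18. The MK-8722 difference of Prkag1-206 did not hold without replicate 3 or 4 of either genotype (0.63 to 0.83).

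Prkag2 encodes γ2 (ENSMUSG00000028944, chr5:24862744-25100642, minus strand) and has 10 annotated transcripts, 3 of which, Prkag2-201, Prkag2-202 and Prkag2-203, begin at separate starts with different coding ends. The most distal start (Prkag2-201) lies 192173 bases upstream of the proximal one (Prkag2-203), with the start of Prkag2-202 between them, 104889 bases from the distal start. The first 60 coding bases of the 3 transcripts, on the minus strand of GRCm38 with the start codon in capitals, are shown because the transcripts differ at these ends while all 978 coding bases of Prkag2-203 lie within both longer transcripts.
Prkag2-201: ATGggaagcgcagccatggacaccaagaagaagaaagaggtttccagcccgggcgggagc
Prkag2-202: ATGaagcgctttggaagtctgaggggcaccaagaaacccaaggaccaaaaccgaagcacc
Prkag2-203: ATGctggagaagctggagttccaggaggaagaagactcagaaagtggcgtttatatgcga
Their coding lengths are 1698, 1329 and 978 bases. The 250 bases before the distal start and before RefSeq's proximal start, which coincides with that of Prkag2-210 and lies slightly upstream of that of Prkag2-203, follow from GRCm38.p6 and on the minus strand, because transcripts from these 2 starts differed in opposite directions between genotypes. Capitals mark each CG dinucleotide.
Distal start, chr5:25100643-25100892: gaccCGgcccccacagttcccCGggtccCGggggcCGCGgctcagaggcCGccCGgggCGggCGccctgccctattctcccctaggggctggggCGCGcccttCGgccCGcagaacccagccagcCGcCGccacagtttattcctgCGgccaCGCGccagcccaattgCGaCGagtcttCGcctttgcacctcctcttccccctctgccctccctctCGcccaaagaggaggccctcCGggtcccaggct
Proximal start, chr5:24908510-24908759: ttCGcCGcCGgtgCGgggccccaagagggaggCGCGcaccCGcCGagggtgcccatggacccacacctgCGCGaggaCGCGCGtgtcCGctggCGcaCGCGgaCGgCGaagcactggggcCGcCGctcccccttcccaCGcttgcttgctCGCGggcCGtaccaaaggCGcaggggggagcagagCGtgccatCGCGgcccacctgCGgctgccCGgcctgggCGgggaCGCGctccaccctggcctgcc
The distal stretch holds 23 CG dinucleotides and the proximal one 34. In windows of 300 bases that reach 50 bases past the start, the 2 starts have 25 and 45, against a median of 7 over 32851 such windows, and 18.4% and 1.93% of all windows hold as many. The letters CACGTG, an E-box read the same on both strands and the core of the motif that TFEB binds, are in 7.15% of all windows and in 0 of the 8 windows matched to the 6 genes.

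At the gene level Prkag2 had 31.9, 31.1, 32.6 and 31.6 CPM in WT cells with DMSO. In AMPK KO cells with DMSO it had 22.5, 19.7, 21.8 and 22.7 CPM. Every AMPK KO library was lower, and the log2 difference was -0.55 ± 0.0691 (SE, edgeR adjusted p = 1.71e-07). The WT and AMPK KO means were 29.2 ± 0.629 and 22.1 ± 0.814 CPM in MK-8722 (SD, n = 4, log2 difference -0.40, edgeR adjusted p = 1.59e-05). In torin1 they were 32.0 ± 3.35 and 25.0 ± 2.60 CPM (SD, n = 4, log2 difference -0.35, edgeR adjusted p = 7.42e-05). The torin1 difference was -0.25 and under 1.2-fold with scaling by library size alone. The drugs had no call on Prkag2 in either genotype, with the largest log2 value, 0.21, for torin1 in AMPK KO cells (edgeR adjusted p = 0.0138, under 1.2-fold). Scaling by library size alone brought that value to 0.27 and past 1.2-fold.

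The distal start went the other way. Its level, added as a measure after the data were seen, was 0.772, 0.629, 0.701 and 0.588 TPM in WT cells with DMSO and 2.03, 1.63, 2.24 and 1.39 TPM in AMPK KO cells with DMSO. With torin1 it was 1.24, 0.825, 1.36 and 1.32 TPM in WT cells and 4.60, 3.48, 5.14 and 5.14 TPM in AMPK KO cells. Both the AMPK KO libraries and the torin1 libraries lay above their comparison groups without overlap. With MK-8722 the values were 0.430, 1.002, 0.360 and 0.459 TPM in WT cells and 2.04, 2.18, 1.93 and 1.89 TPM in AMPK KO cells, again with all AMPK KO libraries above.

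In the transcript counts Prkag2-201 was higher in AMPK KO cells by log2 values of 1.40 in DMSO, 1.87 in MK-8722 and 1.84 in torin1 (edgeR adjusted p = 0.000116, 3.41e-06 and 2.89e-06). Torin1 raised it by 1.21 in AMPK KO cells (edgeR adjusted p = 0.000645) and by 0.77 in WT cells (edgeR adjusted p = 0.027). The WT call held only without DMSO replicate 1 or torin1 replicate 2 among the 8 fits with 1 library fewer, and the other 6 had adjusted p of 0.0501 to 0.0824. The interaction of torin1 with genotype was 0.44 with a 95% interval of -0.22 to 1.10 (edgeR adjusted p = 0.852), so the larger rise in AMPK KO cells was not shown to differ.

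The proximal start, over its 5 transcripts, had 23.8 ± 0.519 TPM (SD, n = 4) in WT cells with DMSO and 14.7 ± 0.952 TPM in AMPK KO cells with DMSO. With torin1 it had 24.9 ± 2.87 and 14.2 ± 1.62 TPM. Of the 5, Prkag2-208 (a retained intron) and Prkag2-209 (a processed transcript) are annotated without coding bases. The main transcript of this start, Prkag2-203, was lower in AMPK KO cells by -0.71, -0.66 and -0.90 in DMSO, MK-8722 and torin1 (edgeR adjusted p = 4.49e-05, 8.6e-05 and 2.2e-06). Prkag2-203 holds 0 bases that no other transcript of the gene holds, so its count rests on how shared reads were divided. Of the other transcripts from this start, Prkag2-208 had -0.97, -0.61 and -0.87, where the MK-8722 call held only without WT replicate 3 or AMPK KO replicate 4 among the 8 fits with 1 library fewer, and Prkag2-210 was called in DMSO (-0.69) and torin1 (-1.26).

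As a share of the TPM of Prkag2, the distal start took 2.08% ± 0.300 in WT cells with DMSO and 8.36% ± 1.78 in AMPK KO cells with DMSO (SD, n = 4). With torin1 the shares were 3.64% ± 0.785 and 19.3% ± 2.34. These 4 groups were separate from one another in each comparison of genotype or of torin1. Each exact two-sided permutation p was 0.0286, the smallest that 4 against 4 libraries can give. Adjusted over 28 start-site comparisons, it was 0.114. The proximal start took 73.6% ± 2.49 and 67.1% ± 5.31 in WT and AMPK KO cells with DMSO, overlapping groups (exact permutation p = 0.0857), and 75.9% ± 4.29 and 60.1% ± 2.06 with torin1 (exact permutation p = 0.0286). The middle start, Prkag2-202, was at 0.452 to 0.641 TPM in all groups and overlapped in every comparison. The remaining transcripts, Prkag2-205, Prkag2-206 and Prkag2-207, start further downstream within the gene and together took 17.9% to 22.6% of its TPM in the group means, with overlapping shares in every comparison. Of these Prkag2-207, annotated as a retained intron, alone took 18.4% over all libraries, and it was not called in any comparison.

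**Figure D3:**
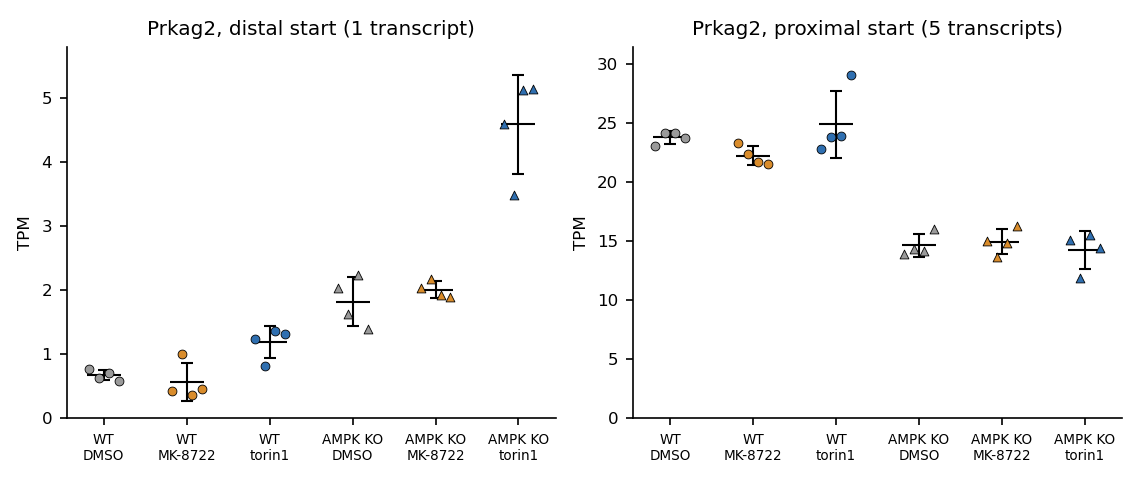
TPM of Prkag2 transcripts from the distal start (Prkag2-201) and summed over the 5 transcripts from the proximal start, by group, on linear axes that start at 0, with 1 point per library and bars for the mean and SD of 4 libraries. The distal start is highest in AMPK KO libraries with torin1, at 3.48 to 5.14 TPM, and the proximal start is lower in all AMPK KO than in all WT libraries.

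Set side by side, the responses of the 6 genes in each comparison can be read against the share of all 15828 genes called. MK-8722 in WT cells called 4 of 6 members, Prkaa2 and Prkab2 up and Prkab1 and Prkag1 down, where 15.7% of all genes were called. In a test against a change of 1.2-fold, rather than of 0, none of these 4 was called. In AMPK KO cells MK-8722 called 0 of 6 members by edgeR and 0 by DESeq2, where 1.56% of all genes were called. At an unadjusted p under 0.05 was 1 of 6, and the share of all genes at that threshold is not given here. Torin1 called 1 of 6 members in WT cells, Prkab2, where 47.6% of all genes were called, and 3 of 6 by adjusted p alone, where 60.1% were. Torin1 in AMPK KO cells called 2 of 6 members, Prkaa2 and Prkab2, where 43.5% of all genes were called, and 5 of 6 by adjusted p alone, where 57.2% were.

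Between genotypes 4 of 6 members were called in DMSO, where 56.9% of all genes were, and 4 of 6 in MK-8722, where 58.9% were, with Prkag1 higher and Prkaa2, Prkab2 and Prkag2 lower in AMPK KO cells in both. By adjusted p alone it was 6 of 6 in both, where 69.5% and 71.0% of genes were. In torin1 3 of 6 were called, Prkag1 higher and Prkab1 and Prkag2 lower, where 54.6% of all genes were called, and the same number by adjusted p alone, where 68.2% were. With the 1.2-fold rule, the shares of members called between genotypes are near the shares of all genes. By adjusted p alone they lie further away, above in DMSO and MK-8722 and below in torin1, which was not tested. Interaction of MK-8722 with genotype called 1 of 6 members, Prkab1, where 12.8% of all genes were called, and 2 of 6 by adjusted p alone, with Prkag1, where 16.7% were. Interaction of torin1 with genotype called 0 of 6 by edgeR and 0 by DESeq2, where 7.07% of all genes were called. At an unadjusted p under 0.05 the count was 3 of 6, and the share of all genes at that threshold is not given here. By adjusted p alone it was 1 of 6, Prkag1, where 9.87% of genes were. Without WT DMSO replicate 2 the torin1 interaction of Prkaa2 was called (0.84, edgeR adjusted p = 0.0475), and without WT torin1 replicate 4 that of Prkag2 was (0.27, edgeR adjusted p = 0.0437).

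The median log2 difference of the 6 genes was -0.06 for MK-8722 in WT cells and 0.04 in AMPK KO cells, against 0.00 over all genes in both. For torin1 it was 0.04 in WT and 0.16 in AMPK KO cells, against 0.04 and 0.06 over all genes. For genotype it was -0.25, -0.32 and -0.08 in DMSO, MK-8722 and torin1, against 0.02, 0.02 and 0.04 over all genes. These comparisons share control groups, so their values are set side by side only.

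**Figure D4:**
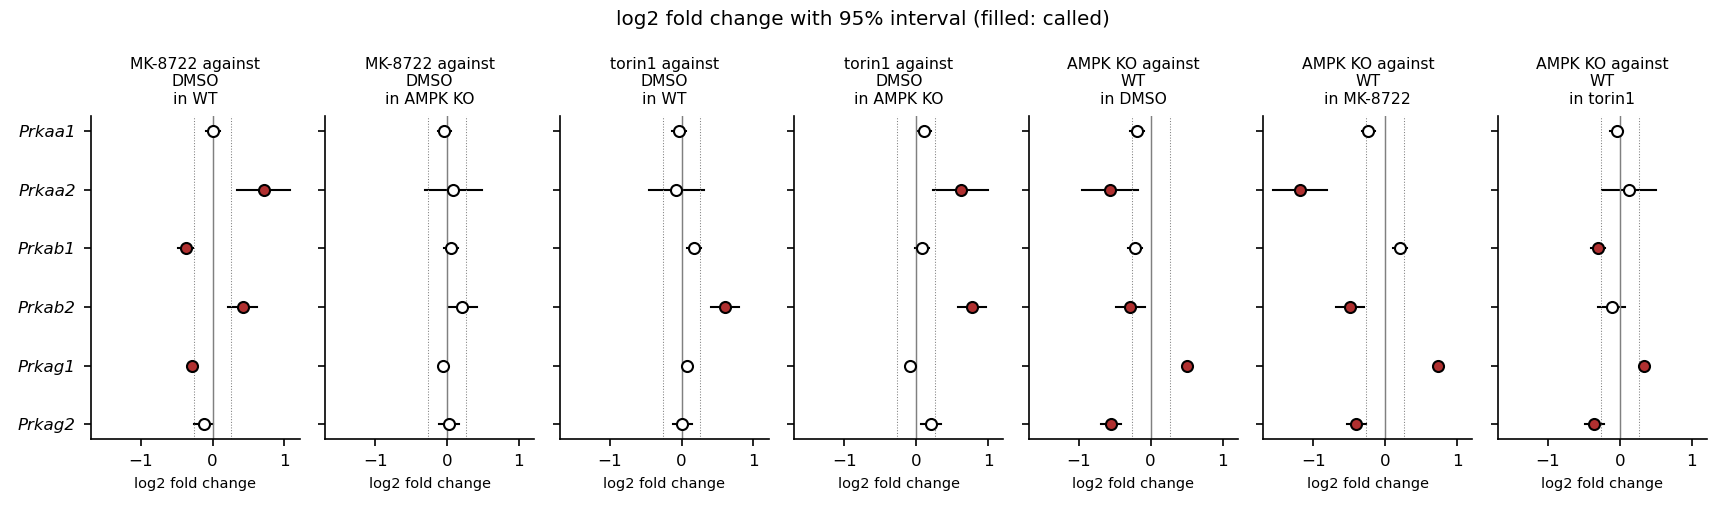
log2 fold change of each of the 6 subunit genes in each comparison, on a log2 scale, with bars for the 95% interval of the edgeR quasi-likelihood fit on 4 libraries per group. Prkab1 and Prkag1 lie below 0 and Prkaa2 and Prkab2 above 0 for MK-8722 in WT cells. For MK-8722 in AMPK KO cells the intervals include 0 except that of Prkab2, at 0.01 to 0.41.

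Over the 28 tested transcripts of the 6 genes, MK-8722 called 2 in WT cells, Prkab1-201 and Prkag1-201, both down, where 3.96% of all transcripts were called. In AMPK KO cells it called 0 by edgeR and by limma on log2 TPM, where 0.0211% of all transcripts were called. At an unadjusted p under 0.05 was 1. Torin1 called 3 in WT cells, all up, where 21.1% of all transcripts were, and 4 in AMPK KO cells, 3 up and 1 down, where 16.4% were. Between genotypes 7 transcripts were called in DMSO (26.9% of all), 9 in MK-8722 (30.5%) and 7 in torin1 (25.7%). The 9 in MK-8722 fell to 5 without WT MK-8722 replicate 1 or 4 or AMPK KO MK-8722 replicate 2. Interaction of MK-8722 with genotype called 1 transcript, Prkab1-201, where 1.19% of all were called. That of torin1 called 0 by edgeR and by limma, where 0.121% of all were called, and 3 had an unadjusted p under 0.05. Shares of all transcripts at an unadjusted p under 0.05 are not given here.

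The shares of the minor paralogues within their classes followed these changes. Prkaa2 took 3.24% ± 0.691 of α TPM in WT cells with DMSO and 5.18% ± 0.722 with MK-8722 (SD, n = 4). Prkab2 took 7.09% ± 0.576 of β TPM in WT cells with DMSO, 11.9% ± 1.93 with MK-8722 and 9.36% ± 0.676 with torin1. The AMPK KO share of Prkab2 was 6.94% ± 1.11 with DMSO, 7.58% ± 0.380 with MK-8722 and 10.5% ± 1.57 with torin1. Prkag2 took 28.7% ± 1.29 of γ TPM in WT cells and 15.7% ± 1.14 in AMPK KO cells with DMSO, and the shares with MK-8722 (30.3% and 16.5%) and torin1 (27.1% and 16.6%) were also apart.

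The differences of Prkaa2 and Prkab2 with MK-8722 in WT cells, of Prkab2 with torin1 in both genotypes, and of Prkag2 between genotypes under all 3 treatments separated the groups without overlap. Each had an exact two-sided permutation p of 0.0286, the smallest that 4 against 4 can give, and an adjusted p of 0.0667 over 21 paralogue share comparisons. Prkaa2 and Prkab2 shares were also lower in AMPK KO than in WT cells with MK-8722 (exact permutation p = 0.0286 each).

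**Figure D5:**
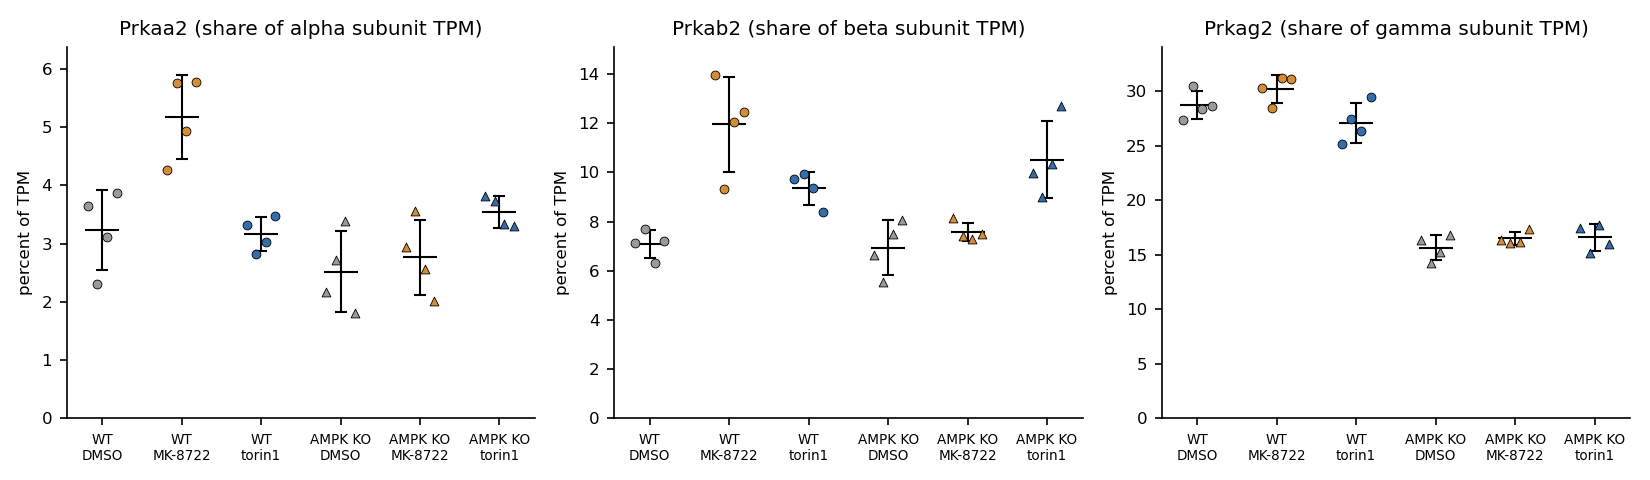
Share of Prkaa2 in α, Prkab2 in β and Prkag2 in γ transcripts as a percent of the class TPM, by group, on linear axes that start at 0, with 1 point per library and bars for the mean and SD of 4 libraries. The Prkag2 share is 27.1% to 30.3% in the WT group means and 15.7% to 16.6% in the AMPK KO group means.

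Genes that act on AMPK or are acted on by it were followed in 2 lists. Of 19 tested upstream kinases, kinase partners, phosphatases and other regulators, 0 were called by edgeR with MK-8722 in either genotype. Of all genes, 15.7% were called in WT cells and 1.56% in AMPK KO cells. At an unadjusted p under 0.05 were 9 of the list in WT cells and 4 in AMPK KO cells, and the shares of all genes at that threshold are not given here. Torin1 called 4 up and 11 down in WT cells, where 47.6% of all genes were called, and 1 up and 7 down in AMPK KO cells, where 43.5% were. Stradb, a pseudokinase that supports LKB1, rose by 0.60 in WT cells and by 0.59 in AMPK KO cells. Cab39, the scaffold protein of LKB1, fell by 0.70 in WT cells and by 0.41 in AMPK KO cells. Camkk1, a calcium-dependent kinase, fell by 0.48 in WT cells and by 0.68 in AMPK KO cells. The median log2 difference of the list was -0.30 in WT cells and -0.20 in AMPK KO cells, against 0.04 and 0.06 over all genes.

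Between genotypes the same list had 3 called up and 7 down in DMSO, 5 up and 7 down in MK-8722 and 3 up and 5 down in torin1, where 56.9%, 58.9% and 54.6% of all genes were called. Ppm1e, a phosphatase that acts on AMPK, was at 17.1 ± 1.26 CPM in AMPK KO cells and 2.21 ± 0.636 CPM in WT cells with DMSO (SD, n = 4), a log2 difference of 2.95. Cab39l fell below WT by a log2 difference of -0.66 in DMSO and -0.76 in torin1, and Camkk1 by -0.71 in MK-8722. Interactions with genotype called 1 up and 1 down for MK-8722, the latter Stradb (-0.34), and 2 up for torin1, with Cab39 at 0.30 as the larger. Of all genes, 12.8% were called for the MK-8722 interaction and 7.07% for that of torin1.

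Of 29 tested substrate genes, MK-8722 called 6 up and 1 down in WT cells, where 15.7% of all genes were called, and 1 up and 1 down in AMPK KO cells, where 1.56% were. Fnip1, a partner of FLCN that AMPK phosphorylates, had 71.6 ± 3.90 CPM with MK-8722 and 28.02 ± 0.767 CPM with DMSO in WT cells (SD, n = 4), a log2 rise of 1.35, and its interaction with genotype was -1.27. Txnip fell by 1.61 on the log2 scale in WT cells, and its AMPK KO value was -1.25 (edgeR adjusted p = 0.0576), with an interaction of 0.36 that did not pass the test (edgeR adjusted p = 0.712). Among AMPK KO libraries Gys1 (0.46) was called up and Ulk1 (-0.36) down. Torin1 called 9 up and 8 down in WT cells, with the largest rise for Txnip (2.54), and 9 up and 7 down in AMPK KO cells, with Txnip (1.40) and Acaca (-0.89), beside 47.6% and 43.5% of all genes.

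Between genotypes the substrate list had 6 up and 9 down in DMSO, 6 up and 10 down in MK-8722 and 9 up and 9 down in torin1, near the 56.9%, 58.9% and 54.6% of all genes called. Tbc1d4 had the largest fall in DMSO (-1.12), Fnip1 in MK-8722 (-1.63) and Txnip in torin1 (-1.10). Nos3 had the largest rise in all 3, but its level was at most 0.414 CPM in the group means and near 0 in WT cells. The interaction of MK-8722 called 1 up, Gys1 (0.50), and 6 down, where 12.8% of all genes were called. That of torin1 called Fnip1 up (0.49) and Foxo3 down (-0.33), where 7.07% of all genes were called.

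Among the 10021 genes with a mean of at least 5 CPM, those whose log2 CPM followed each member most closely over the 24 libraries were found by Pearson's r. These libraries share the 6 groups and their depth, so r is a description. Prkaa1 was closest to Tlk1 (r = 0.900), and Prkaa2 to Cpne3 (0.878) and Kbtbd2 (0.871). Prkab1 was closest to Scaf8 (0.909) and Ncoa5 (0.892), and Prkab2 to Hgsnat (0.938) and Fbxl2 (0.934). The highest values were those of Prkag1 with Crybg1 (0.983) and Card10 (0.980), followed by Prkag2 with Bcl2 (0.959) and Phlpp1 (0.946). Both Crybg1 and Card10 were highest in AMPK KO cells and lowest in WT cells with MK-8722, as Prkag1 was. They were picked by their r with Prkag1, so this is not a separate result.

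In the order of group means, the groups of Prkag1 ran from AMPK KO with DMSO to WT with MK-8722, at 58.9 CPM, and only the neighbours AMPK KO with MK-8722 and with torin1 overlapped. The groups of Prkab1 ran from WT with torin1 (63.4 CPM) to WT with MK-8722 (43.3 CPM), where AMPK KO with torin1 overlapped with AMPK KO with MK-8722, and AMPK KO with DMSO overlapped with WT with MK-8722. For Prkab2, both torin1 groups and WT with MK-8722 overlapped in a chain at the top (19.6 to 17.3 CPM), and AMPK KO with DMSO was lowest (10.7 CPM). For Prkaa2, WT with MK-8722 stood alone at the top (7.77 CPM), and each of the other neighbours overlapped. For Prkaa1, the WT groups and AMPK KO with torin1 overlapped in a chain, and AMPK KO with DMSO and with MK-8722 formed a lower overlapping pair. For Prkag2, the 3 WT groups (32.0 to 29.2 CPM) were all above the 3 AMPK KO groups (25.0 to 21.7 CPM).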

How the data were processed

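PolyA RNA from 24 libraries was sequenced. The authors aligned reads with STAR and quantified them with Salmon against GRCm38 (versions not given in the sources used here), and deposited estimated counts per gene and, for each library, estimated counts and TPM per transcript. Estimated counts were rounded and tested with edgeR 4.0.16 under R 4.3.3 (filterByExpr, TMM scaling, quasi-likelihood test, 6 group means, Benjamini-Hochberg adjustment over 15828 genes or 56835 transcripts). A call required an adjusted p under 0.05 and at least a 1.2-fold change. Shares of TPM were compared by exact permutation of 4 against 4 libraries. The smallest p of that test is 0.0286, so an adjusted p under 0.05 needs many comparisons at that value. A share that did not pass adjustment is therefore not shown to be unchanged. DESeq2 1.42.0, limma 3.58.1 (on log2 of TPM plus 0.1) and other scalings, filters and covariates were run as alternatives. The gene fit was tested on simulated data and recovered 81.5% of 200 changed genes, and 5.78% of the genes it called were false. The transcript fit recovered 16.5% of 200 changed transcripts. These shares hold only for the spread and the fold sizes set in the simulation. Recovery at the spread of the 24 libraries and near the 1.2-fold limit was not tested. Transcript counts rest on how Salmon divided reads among overlapping transcripts, and that uncertainty is not in the tables used. Transcript positions come from the GENCODE annotation of GRCm38.

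Named in the text are the 6 members and Prkag3, transcripts with a mean share of at least 10% or with a call, the 2 genes closest to each member by Pearson's r, and in each list and comparison the called gene with the largest rise and fall. The members and lists were chosen with earlier results of these data known. The Prkag2 start sites, the transcript interactions and the shares among coding transcripts were added after seeing the data. Some genes that this rule picks are not reported here.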

Additional observations from a re-analysis of the deposited data

Results flagged for a closer look

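In groups of 4 libraries, 8 of 96 tested groups of member genes and transcripts had 1 library that lay far from the other 3 by Dixon's ratio, where chance gives about 1 in 20. For Prkab1 these were WT MK-8722 replicate 2 at 49.2 CPM, AMPK KO DMSO replicate 4 at 47.1 CPM and AMPK KO MK-8722 replicate 2 at 53.0 CPM. The lone low value of Prkab2 was AMPK KO DMSO replicate 2 at 9.13 CPM. Among transcripts they were Prkab1-201 in WT MK-8722 replicate 2 at 20.97 CPM, Prkab1-208 in AMPK KO MK-8722 replicate 3 at 3.04 CPM, Prkag1-201 in AMPK KO MK-8722 replicate 4 at 95.4 CPM and Prkag2-207 in AMPK KO torin1 replicate 4 at 0.544 CPM.

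The response to MK-8722 differed between genotypes for Prkab1, by a log2 interaction of 0.43 (edgeR adjusted p = 0.000189), and for its transcript Prkab1-201, by 0.56 (edgeR adjusted p = 0.0169). Prkab1 fell with MK-8722 in all 4 WT libraries relative to every WT control and did not fall in AMPK KO libraries.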

How the results depend on the processing

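A test against 1.2-fold called 0 members with MK-8722 in WT cells, 2 and 1 between genotypes in DMSO and torin1, and 0 for the MK-8722 interaction. Library size alone called 2 with torin1 in WT cells, and 2 and 1 between genotypes in DMSO and torin1. Of all 15828 genes, that scaling called 5174 up and 2493 down with torin1 in WT cells. Between genotypes it called 6073 up and 2939 down in DMSO, and 5841 up and 2903 down in torin1. Adjusted p alone gave 6 members between genotypes in DMSO and in MK-8722, 3 and 5 for torin1 in WT and AMPK KO cells, and 2 and 1 for the interactions with MK-8722 and torin1. Removing the GC and length trend left 1 with torin1 in AMPK KO cells. Leaving out 1 library gave 1 to 2 members for torin1 in AMPK KO cells, 0 to 1 for the torin1 interaction and 5 to 8 transcripts between genotypes in MK-8722. For the test against 1.2-fold, the GC and length setting and the fits with 1 library fewer, shares of all genes are not given here. Those counts therefore do not show whether members changed more than other genes. Libraries with the same replicate number did not deviate together (60 pairs, median r 0.024, 5 over 0.1). Those of the same passage did so in part (24 pairs, median r 0.129 against -0.036 for other pairs, 15 over 0.1). Of 24 libraries, 18 were closest to their own passage. The main fit had no block, so it left what libraries of a passage share in the spread. Fits with a block are given as alternatives. A block on replicate number changed no count of called genes or transcripts. Blocking on passage gave 2 called genes for the MK-8722 interaction and 1 for the torin1 interaction, by adding Prkaa2 (-0.62 and 0.70).

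Several values changed sign, most of them near 0. Of those with an adjusted p under 0.05, Prkab1 between genotypes in MK-8722 went from 0.21 to -0.1908, Prkaa1 with torin1 in AMPK KO cells from 0.11 to -0.0788 and Prkag1 with torin1 in WT cells from 0.08 to -0.0055, all 3 without the GC and length trend. For MK-8722 in WT cells Prkaa1 was 0.01, with -0.0026 by DESeq2 size factors, -0.0173 without a filter, -0.0086 with a minimum of 10 counts, -0.0737 without the GC and length trend and -0.0025 by DESeq2, and -0.0283 to 0.0175 leaving out 1 library. For torin1 in WT cells library size alone gave Prkaa2 0.0271 (-0.23 to 0.0217 leaving out 1 library) and Prkaa1 0.0651 (-0.0677 to 0.0036). Prkag2 gave -0.0189 without a filter, -0.086 with a length offset, -0.0831 without the GC and length trend, -0.0121 with only the groups compared, and -0.076 to 0.0506 leaving out 1 library. Leaving out 1 library, MK-8722 in AMPK KO cells gave -0.0422 to 0.29 for Prkaa2 and -0.0146 to 0.0473 for Prkag2. Without the GC and length trend Prkaa1 gave 0.0345 for the MK-8722 interaction. Prkaa1 between genotypes in torin1 gave 0.0598 by library size alone. In percentage points, shares by estimated counts turned to -0.2289 for Prkab1-208 and -0.3766 for Prkag2-210 with MK-8722 in WT cells, 0.1592 for Prkag1-201 with MK-8722 in AMPK KO cells, and -0.0322 and 0.1315 for Prkab1-208 between genotypes in DMSO and torin1. Among coding transcripts alone Prkag1-201 gave -0.0305 between genotypes in DMSO and Prkag2-210 -0.879 with MK-8722 in WT cells. The cause of these changes was not tested.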

Other observations

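Between WT passage 15 and AMPK KO passage 16, the nearest passages of the genotypes, Prkag2 had 32.6 and 21.8 CPM in DMSO, 28.7 and 21.8 CPM in MK-8722 and 30.6 and 25.7 CPM in torin1. Prkab2 had 11.2 and 11.1 CPM in DMSO, 17.5 and 11.7 CPM in MK-8722 and 17.8 and 17.9 CPM in torin1. Each value is 1 library.

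Genes that overlap a member on the opposite strand had at most 11 estimated counts in a library. The most relative to its member was Prkag2os2, at up to 1.55% of the counts of Prkag2.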
